A study of Homo sapiens with 12 samples.

Results

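The genes described here encode the subunits of Polycomb repressive complex 2 (PRC2): EZH1, EZH2, SUZ12, EED, RBBP4, RBBP7, JARID2, MTF2, PHF19 and AEBP2. Every probe set that the platform annotation assigns to 1 of these 10 symbols was taken, which gave 31 of the 54675 probe sets and 10 of the 19775 named genes. A further probe set carries the symbols of both SUZ12 and its pseudogene SUZ12P1 and was set aside. This assignment of probe sets uses no measured value. The members themselves, and the lists of other genes below, were chosen with earlier results of these data known.

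Messenger RNA was profiled on 12 Affymetrix U133 Plus 2.0 arrays in 22Rv1 cells, an established line of human prostate carcinoma, with 3 arrays in each of 4 groups. The vehicle group received no compound, and its arrays have no time in their labels. The other groups received a small compound, described in the series title as directed against the transcription factor ONECUT2, for 4 h, 6 h or 16 h, at a dose that the labels do not give. All groups shared RPMI-1640 medium with fetal bovine serum and antibiotics. The titles of the 16 h arrays lack a code element that the other 9 titles carry, so time, compound and anything else that differed with that code cannot be told apart. Nothing says whether replicates were separate cultures, and p-values then measure only the spread between arrays, which may be technical.

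PRC2 places methyl groups on lysine 27 of histone H3, a mark of silenced genes. EZH2 or its paralogue EZH1 carries the catalytic SET domain, EED and SUZ12 hold the enzyme active, and RBBP4 or RBBP7 binds histone tails. Accessory proteins divide the complex into a form with MTF2, PHF19 or PHF1 (PRC2.1) and a form with JARID2 and AEBP2 (PRC2.2). In prostate cancer EZH2 is a well-known marker of aggressive disease, and its gene is induced by E2F factors in dividing cells.

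Because several members moved at 16 h together with cell cycle genes, promoters were searched for the core E2F motif, spelled TTTCCCGC, TTTCGCGC, TTTGCCGC or TTTGGCGC on either strand. The windows were those of RefSeq on GRCh38.p14, 250 bases before to 50 bases after each annotated start. The 10 members had 15 such windows, and the motif lay in 6 of them, in 6 different members. It lay in 3.31% of all 35116 windows, and in 4.66% of the 21752 windows whose GC content fell in the members' range of 52.3% to 79.7%. A match describes letters and not a site. Of these 6 members, 5 changed at 16 h, in both directions, beside 42.8% of all tested genes. The direction of MTF2, among the 5, depends on the probe set. PHF19 has a match and did not pass the threshold, and RBBP7 has none and fell. A link between match and change was not tested. Each line gives 30 bases around the match, 5′ to 3′ on the gene's strand, with the motif in capitals.
EZH1, chr17:42745137-42745166, minus strand: gcggggttttgGCGGCAAAtgacagtagtg
EZH2, chr7:148884272-148884301, minus strand: gggctgccgcgTTTGGCGCtcggtccggtc
SUZ12, chr17:31936807-31936836, plus strand: cgacccctaatTTTCCCGCgaattcagttc
MTF2, chr1:93079277-93079306, plus strand: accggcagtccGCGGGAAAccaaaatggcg
PHF19, chr9:120877322-120877351, minus strand: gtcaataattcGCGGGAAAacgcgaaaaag
AEBP2, chr12:19440438-19440467, plus strand: caaggcgacgtTTTGCCGCgatccccctgc

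In EZH2 and MTF2 the motif began just after the annotated start, at bases 2 and 6. In the other 4 it lay upstream, beginning at base -115 in EZH1, -189 in SUZ12, -152 in PHF19 and -150 in AEBP2, counted from the start. The 250 bases before the start of the catalytic paralogues are printed whole, because these genes moved in opposite directions. The match in EZH1 is again in capitals, and that of EZH2 lies past the end of its line.
EZH1, chr17:42745041-42745290, minus strand: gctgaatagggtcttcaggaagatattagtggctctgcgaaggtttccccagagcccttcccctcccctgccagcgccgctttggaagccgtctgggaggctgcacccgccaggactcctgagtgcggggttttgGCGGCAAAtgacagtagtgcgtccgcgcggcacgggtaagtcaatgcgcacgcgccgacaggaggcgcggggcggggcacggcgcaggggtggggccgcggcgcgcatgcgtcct
EZH2, chr7:148884292-148884541, minus strand: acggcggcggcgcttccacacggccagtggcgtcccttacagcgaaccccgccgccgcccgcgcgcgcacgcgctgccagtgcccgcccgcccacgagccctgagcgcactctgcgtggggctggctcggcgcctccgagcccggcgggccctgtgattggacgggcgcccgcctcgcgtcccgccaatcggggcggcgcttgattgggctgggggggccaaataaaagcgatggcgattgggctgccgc

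Values below are log2 signals as deposited, after GCRMA, a background correction and normalisation of Affymetrix arrays. Each gene is represented by its brightest probe set, that with the highest overall mean. Genes whose brightest probe set averaged at least 2.11 were tested, which kept all 10 members and 12635 genes in all. Of the 31 member probe sets, 28 passed the same minimum. A change is called where the limma p-value, adjusted by the Benjamini-Hochberg method over all genes tested, was below 0.05. Signals of different probe sets are not compared as levels, since probes differ in brightness.

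At 16 h, 2 members rose and 4 fell against vehicle. EZH1 and AEBP2 rose, EZH2, SUZ12, RBBP7 and MTF2 fell, and EED, RBBP4, JARID2 and PHF19 did not pass the threshold. Changes were widespread at that time: 42.8% of all tested genes were called, 26% as risen and 16.8% as fallen. The 6 of 10 members called are to be read against those shares. In 7 members all 16 h arrays lay to the same side of all vehicle arrays, beside 51.5% of all genes. The median log2 change of the 10 members was -0.20, against 0.05 over all genes. At 4 h and at 6 h no member was called, where 0.459% and 0.0317% of all genes were. The plot of member signals by array shows these values.

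**Figure D1:**
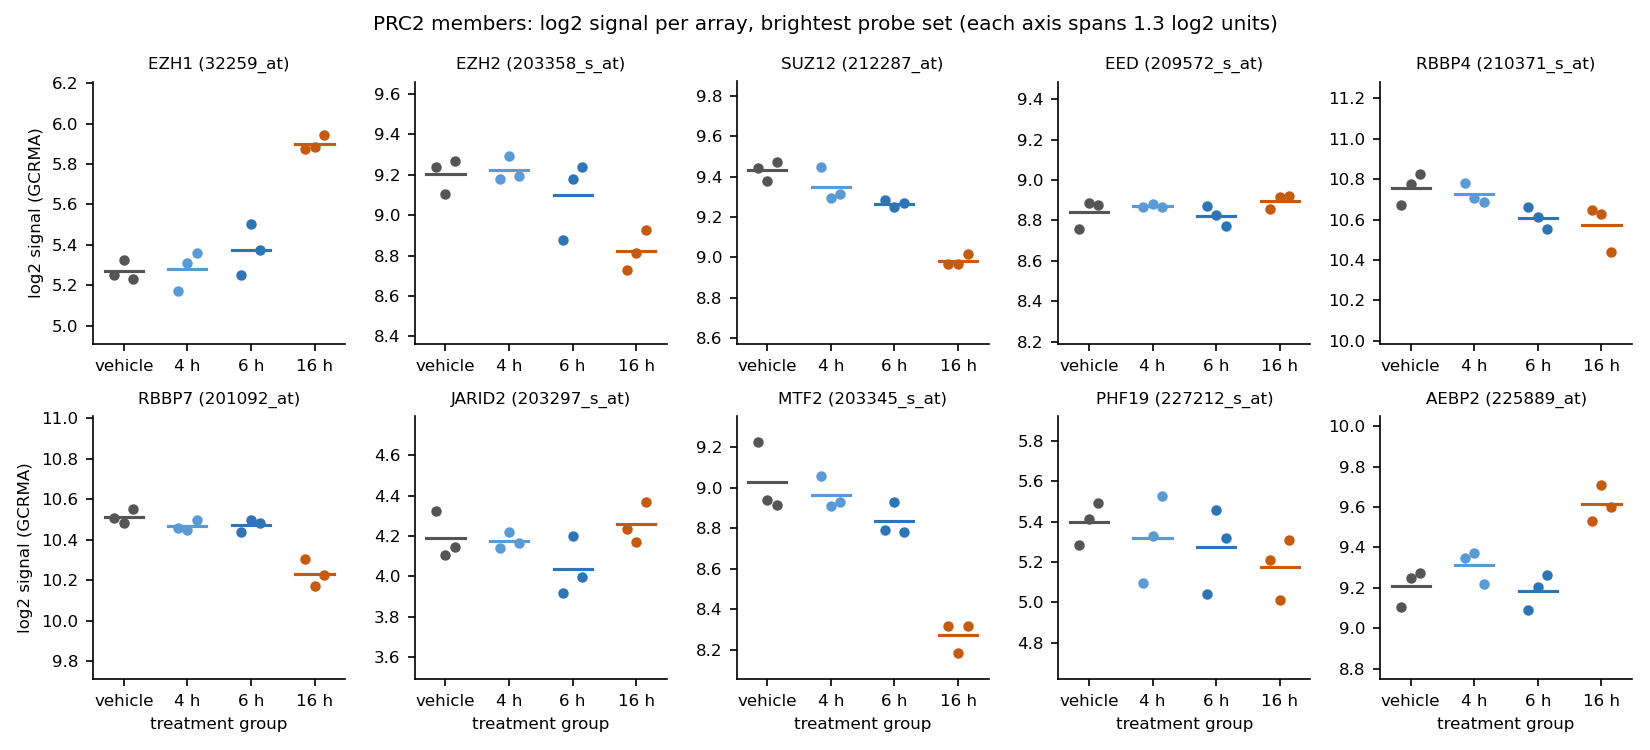
Log2 signal of the brightest probe set of each member (vertical axis, spanning the same range in each panel) on the 3 arrays of each group (points, with bars at the group means). The 16 h arrays of EZH1 and AEBP2 lie above all others, and those of EZH2, SUZ12, RBBP7 and MTF2 lie below the vehicle arrays.

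EZH2, the main catalytic subunit of dividing cells, has a single probe set. Its signal was 9.24, 9.10 and 9.27 with vehicle, 9.18, 9.29 and 9.19 after 4 h, 8.88, 9.18 and 9.24 after 6 h and 8.73, 8.81 and 8.93 after 16 h. All 16 h arrays were below all vehicle and 4 h arrays, but the lowest 6 h array fell between the highest and the middle 16 h array. EZH2 fell at 16 h by 0.38 ± 0.10 (SE, n = 3 per group), or 1.30-fold, with an adjusted p of 0.00734 in limma. Against 6 h it fell 1.21-fold (adjusted p = 0.0366), a call lost without 6 h replicate 2 (adjusted p = 0.118) or 3 (0.136), or 16 h replicate 1 (0.109) or 2 (0.0858). It was also lost with median centring of each array (0.056), no signal minimum (0.0545) or a fit of these groups alone (0.0845), in 7 of 16 alternatives in all. Its group means ran, from high to low, 4 h, vehicle, 6 h and 16 h, and the first 3 did not differ beyond their spread.

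EZH1, the paralogue with weaker methyltransferase activity that prevails in resting cells, moved the other way. Its brightest probe set, 32259_at, gave 5.25, 5.33 and 5.23 with vehicle, 5.17, 5.31 and 5.36 after 4 h, 5.25, 5.50 and 5.38 after 6 h and 5.88, 5.88 and 5.94 after 16 h. The 16 h arrays stood above all 9 others, which overlapped. EZH1 rose at 16 h by 0.63 ± 0.08 (SE, n = 3 per group), or 1.55-fold (limma adjusted p = 4.86e-05), and was 1.44-fold above 6 h (adjusted p = 0.000201). The order of its means was 16 h, 6 h, 4 h and vehicle, the last 3 within their spread. A dimmer probe set, 203249_at, read 2.95, 3.01 and 3.23 on vehicle arrays and 3.52, 3.94 and 3.45 at 16 h, and rose 1.49-fold (adjusted p over probe sets 0.00708). Probe sets 239198_at and 239197_s_at did not pass, with log2 changes of 0.00 (95% confidence interval -0.30 to 0.29) and 0.09 (-0.14 to 0.31). The remaining EZH1 probe set, 211310_at, averaged below the minimum and exceeded the background control on 6 of 12 arrays.

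The distance between the catalytic paralogues was read on each array as EZH2 minus EZH1. Only its change is interpretable, since the probe sets differ in brightness. It was 3.93 ± 0.14 (SD, n = 3) with vehicle, 3.94 ± 0.09 after 4 h, 3.72 ± 0.13 after 6 h and 2.92 ± 0.07 after 16 h. The 16 h arrays, between 2.85 and 2.98, lay below the vehicle range of 3.78 to 4.04. On the brightest probe sets, the shift of -1.01 at 16 h is a 2.02-fold change of the ratio toward EZH1. Its exact two-sided permutation p was 0.1, the smallest that 3 against 3 arrays allow, and p was 1 at 4 h and 0.2 at 6 h. Leaving out single arrays gave shifts from -1.09 to -0.96. Other EZH1 probe sets were not tried in this difference. Of those, 203249_at rose by 0.57 at 16 h against vehicle. Probe sets 239198_at and 239197_s_at changed by -0.0008 and 0.09 and did not pass. The size of the shift is therefore given for the brightest EZH1 probe set only.

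**Figure D2:**
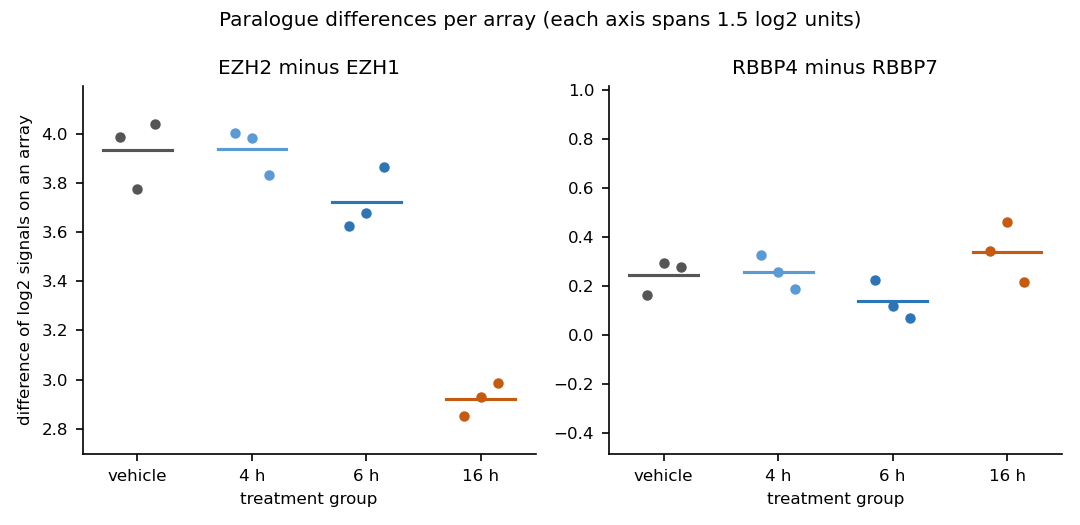
Difference of log2 signals between paralogues on each array (vertical axis) for EZH2 minus EZH1 and RBBP4 minus RBBP7, with 3 points and a bar at the mean per group. Each gene is read on its brightest probe set. EZH2 minus EZH1 dropped from a mean of 3.93 on vehicle arrays to 2.92 at 16 h, while the 16 h range of RBBP4 minus RBBP7 overlaps that of vehicle.

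SUZ12, the scaffold to which the accessory proteins bind, fell. Its brightest probe set read 9.44, 9.38 and 9.47 with vehicle, 9.45, 9.29 and 9.31 after 4 h, 9.28, 9.25 and 9.27 after 6 h and 8.97, 8.97 and 9.02 after 16 h. The means declined in the order vehicle, 4 h, 6 h and 16 h, and the 6 h arrays already lay below all vehicle arrays, as in 14.4% of all genes. That 6 h difference of -0.17 ± 0.06 did not pass (limma adjusted p = 0.467). At 16 h SUZ12 fell by 0.45 ± 0.06 (SE, n = 3 per group), or 1.36-fold (adjusted p = 0.000117), and it was 1.22-fold below 6 h (adjusted p = 0.00281). Of its dim probe sets, 1566190_at averaged 1.96 on vehicle and 2.05 on 16 h arrays and did not pass (adjusted p = 0.655). The other, 1566191_at, was untested and lay at or below the background control on all vehicle arrays, and 2 of 3 arrays at 16 h exceeded that control. Averaging the probe sets of SUZ12 ended its call (log2 change -0.02, adjusted p = 0.82), and 2 of the 3 are near background.

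EED, which binds the methylated lysine 27 and stimulates the enzyme, did not pass on its brightest probe set. Values were 8.76, 8.89 and 8.88 with vehicle, 8.87, 8.88 and 8.87 after 4 h, 8.87, 8.82 and 8.77 after 6 h and 8.86, 8.92 and 8.92 after 16 h. All groups overlapped vehicle. The log2 change at 16 h was 0.06, with a 95% confidence interval of -0.07 to 0.19 that bounds a rise at 1.14-fold (limma adjusted p = 0.46). Probe set 210656_at gave 1.87, 1.84 and 2.12 on vehicle arrays and 2.19, 2.99 and 2.55 at 16 h. It exceeded the background control on 7 of 12 arrays and averaged 1.97 without the 16 h arrays, so it met the signal minimum only through that group and no call is read from it.

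RBBP7, a histone-binding WD40 protein shared with deacetylase complexes, fell on its only probe set. It gave 10.51, 10.48 and 10.55 with vehicle, 10.46, 10.45 and 10.50 after 4 h, 10.44, 10.50 and 10.48 after 6 h and 10.30, 10.17 and 10.22 after 16 h. The 16 h arrays were below the 9 others, whose groups overlapped. The fall was 0.28 ± 0.06 (SE, n = 3 per group), or 1.22-fold (limma adjusted p = 0.00195), and 1.18-fold against 6 h (adjusted p = 0.00527). The order of the means was vehicle, 6 h, 4 h and 16 h.

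RBBP4, its close paralogue, did not pass on its brightest probe set and split on the others. Probe set 210371_s_at gave 10.67, 10.78 and 10.83 with vehicle, 10.78, 10.71 and 10.69 after 4 h, 10.66, 10.61 and 10.55 after 6 h and 10.65, 10.63 and 10.44 after 16 h. The 6 h and 16 h arrays lay below all vehicle arrays and overlapped each other. The 16 h difference was -0.19 ± 0.07 with a 95% confidence interval of -0.35 to -0.03 (limma adjusted p = 0.0572). It passed without vehicle replicate 1 (adjusted p = 0.0399) or 16 h replicate 1 (0.0426), and in 8 of 16 alternatives in all.

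Of the other RBBP4 probe sets, 3 fell at 16 h. Probe set 217301_x_at went from 8.74, 8.78 and 8.73 on vehicle arrays to 8.04, 8.03 and 8.14, a fall of 1.60-fold (adjusted p over probe sets 2.58e-05). Probe set 225396_at went from 7.08, 7.02 and 6.97 to 6.66, 6.66 and 6.46, a fall of 1.35-fold (adjusted p = 0.00372). Probe set 237333_at went from 7.49, 6.89 and 7.63 to 6.49, 6.21 and 6.11, a fall of 2.10-fold (adjusted p = 0.000621). In contrast, 239071_at rose 1.51-fold (adjusted p = 0.00223), from 3.32, 3.40 and 3.32 to 3.87, 4.20 and 3.76, and 244872_at did not pass (log2 change 0.24, adjusted p = 0.175). Names ending in _s_at or _x_at mark probe sets whose probes can bind related transcripts, which for RBBP4 could include RBBP7. Where on the transcript each probe set lies is not given in the sources used here.

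The difference RBBP4 minus RBBP7 was 0.24 ± 0.07 (SD, n = 3) with vehicle and 0.34 ± 0.12 after 16 h, on their brightest probe sets. The ranges overlapped, and the exact two-sided permutation p was 0.4. At 4 h and 6 h p was 0.8 and 0.2. Both pairs at 3 times make 6 such comparisons, and none could pass an adjustment.

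Among the accessory subunits of PRC2.1, MTF2, which brings the complex to unmethylated CpG islands, showed the largest fall of any member on its brightest probe set. Probe set 203345_s_at gave 9.23, 8.94 and 8.91 with vehicle, 9.06, 8.91 and 8.93 after 4 h, 8.79, 8.93 and 8.78 after 6 h and 8.32, 8.18 and 8.32 after 16 h. The 16 h arrays were well below the 9 others. The fall was 0.76 ± 0.09 (SE, n = 3 per group), or 1.69-fold (limma adjusted p = 4.79e-05), and 1.48-fold against 6 h (adjusted p = 0.000419). Its means declined in the order vehicle, 4 h, 6 h and 16 h, and the first 3 groups overlapped.

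The other 4 MTF2 probe sets did not move as a block. Probe set 203346_s_at also fell, 1.35-fold (adjusted p = 0.00104), from 7.66, 7.46 and 7.51 to 7.11, 7.01 and 7.21. Probe set 209705_at rose 1.29-fold (adjusted p = 0.00506), from 6.28, 6.50 and 6.43 to 6.74, 6.78 and 6.80. Probe set 209704_at rose 1.39-fold (adjusted p = 0.0362), from 4.81, 4.81 and 5.08 to 5.23, 5.34 and 5.56. Leaving out vehicle replicate 1 (adjusted p = 0.103) or 2 (0.099), or 16 h replicate 2 (0.0687) or 3 (0.127) ended that last call, as did median centring of each array (0.0532). Probe set 203347_s_at did not pass (log2 change 0.27, adjusted p = 0.0864), but did without 16 h replicate 1 (adjusted p = 0.0225). Had _s_at and _x_at probe sets been left out, MTF2 would have been called as risen (log2 change 0.37, adjusted p = 0.00392), and the mean of its probe sets did not change detectably (-0.01, adjusted p = 0.891). The direction of MTF2 as a gene therefore depends on which probe set stands for it.

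**Figure D3:**
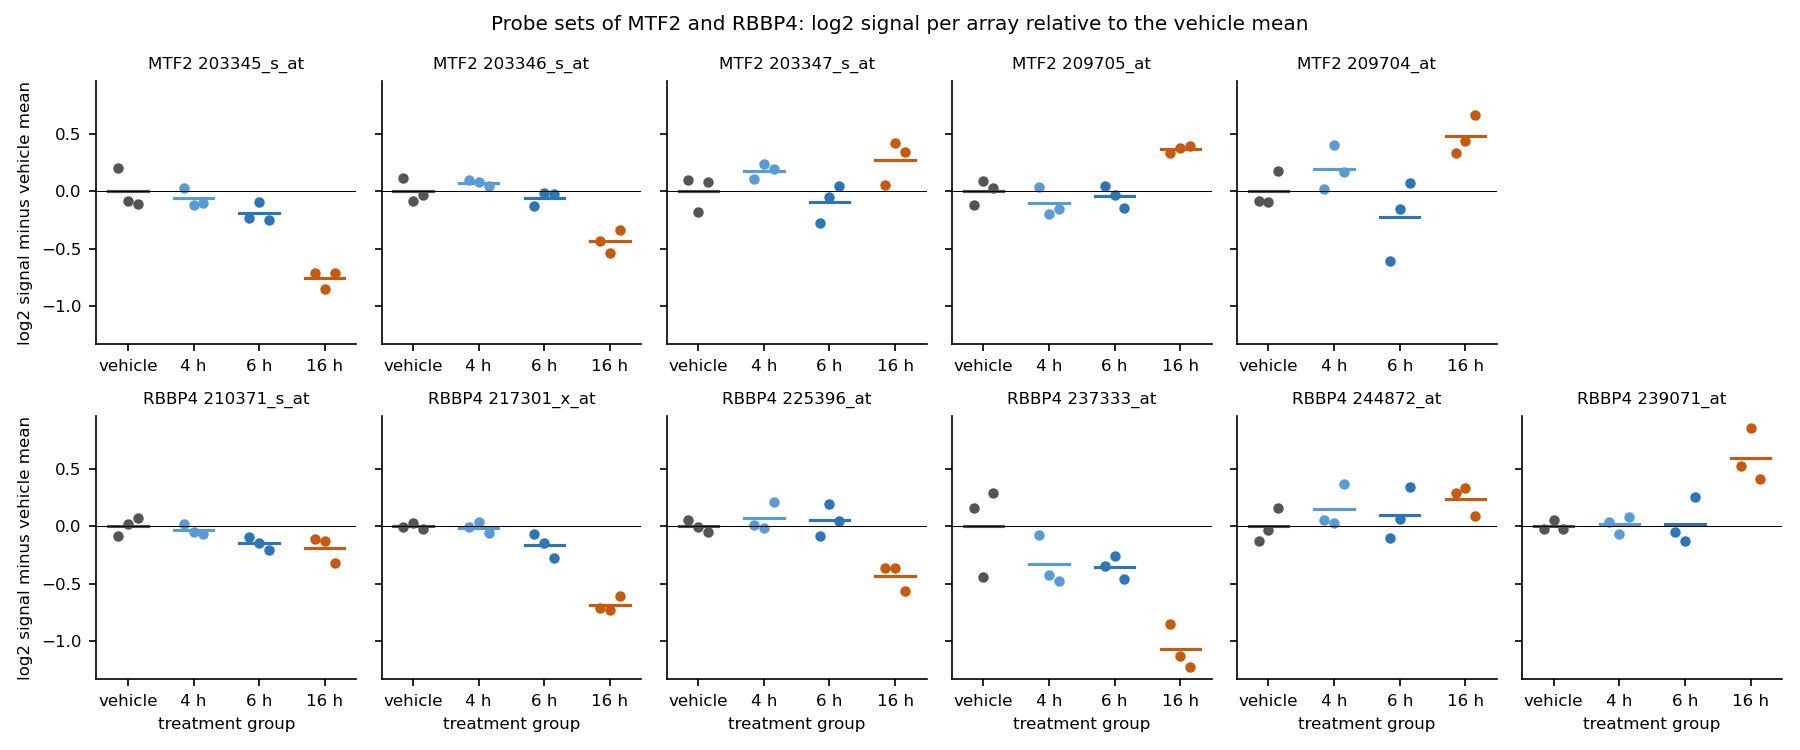
Log2 signal relative to the vehicle mean (vertical axis, shared) for the 5 probe sets of MTF2 and the 6 of RBBP4, on 3 arrays per group (points, with bars at the means). At 16 h probe sets of the same gene separate in both directions, from -0.76 to 0.48 for MTF2 and from -1.07 to 0.60 for RBBP4.

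An RNA control differed in the same comparison. On the ACTB control, the 3′ probe set exceeded the 5′ by 2.80 ± 0.07 log2 units (SD, n = 3) with vehicle and by 4.09 ± 0.09 after 16 h (exact two-sided permutation p = 0.1, the lowest that 6 arrays allow). For GAPDH the 3′ minus 5′ value was -0.46 ± 0.02 and -0.43 ± 0.04 (exact permutation p = 0.3). The signal of the 18S ribosomal RNA control was 9.62 ± 0.29 with vehicle, 8.98 ± 0.14 after 4 h, 8.64 ± 0.19 after 6 h and 11.06 ± 0.10 after 16 h, lower than vehicle at the early times and higher at the last (exact permutation p = 0.1 each). The part of these controls in the split between probe sets was not tested. Nor was it tested for the other member calls at 16 h or the shift of EZH2 minus EZH1, which compare the same arrays.

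PHF19, a Polycomb-like relative of MTF2, did not pass on any of its 3 probe sets. Its brightest gave 5.29, 5.41 and 5.49 with vehicle, 5.09, 5.33 and 5.53 after 4 h, 5.04, 5.46 and 5.32 after 6 h and 5.21, 5.01 and 5.31 after 16 h. The groups overlapped throughout, and the spread within a group was as large as the differences between group means. The log2 change at 16 h was -0.22, with a 95% confidence interval of -0.50 to 0.06 (limma adjusted p = 0.195). The other probe sets changed by 0.09 (-0.20 to 0.38) and 0.06 (-0.18 to 0.30).

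AEBP2, a zinc finger protein of PRC2.2, rose at 16 h. Probe set 225889_at gave 9.10, 9.25 and 9.27 with vehicle, 9.35, 9.37 and 9.22 after 4 h, 9.09, 9.20 and 9.27 after 6 h and 9.53, 9.71 and 9.60 after 16 h. The 16 h arrays lay above all others, and the other groups overlapped. The rise was 0.41 ± 0.08 (SE, n = 3 per group), or 1.32-fold (limma adjusted p = 0.00129), and 1.34-fold against 6 h (adjusted p = 0.000937). Its means ran 16 h, 4 h, vehicle and 6 h from high to low. The dim probe set 235184_at was too weak to be tested. It gave 1.58, 1.68 and 1.75 on vehicle arrays, none of them above the brightest unspiked control of its array, and 2.44, 2.59 and 2.75 at 16 h. Taking that control as the upper limit of the vehicle signal gives a rise of at least 1.37-fold, which was not tested. Only at 16 h did all 3 arrays exceed the control, so no call is read from 235184_at and it adds no support to 225889_at.

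JARID2, the other PRC2.2 subunit, which recruits and stimulates the enzyme, did not pass on any of 3 probe sets. Its brightest gave 4.32, 4.10 and 4.15 with vehicle, 4.14, 4.22 and 4.16 after 4 h, 3.92, 4.20 and 4.00 after 6 h and 4.24, 4.17 and 4.37 after 16 h. The 4 groups overlapped. The log2 change at 16 h was 0.07, with a 95% confidence interval of -0.13 to 0.26 (limma adjusted p = 0.582). The other probe sets changed by 0.09 (-0.13 to 0.32) and -0.05 (-0.28 to 0.19).

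Of the 28 tested member probe sets, 2 met the signal minimum only through a single group, EED 210656_at through 16 h and SUZ12 1566190_at through 4 h. Of the other 26, 6 rose and 8 fell at 16 h, in 7 of the 10 genes. Over all 27306 tested probe sets, 23% rose and 16.7% fell. EED, JARID2 and PHF19 had no call among these 26. EZH2 and RBBP7 each rest on a single probe set, and AEBP2 and SUZ12 each on a single one clear of background.

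**Figure D4:**
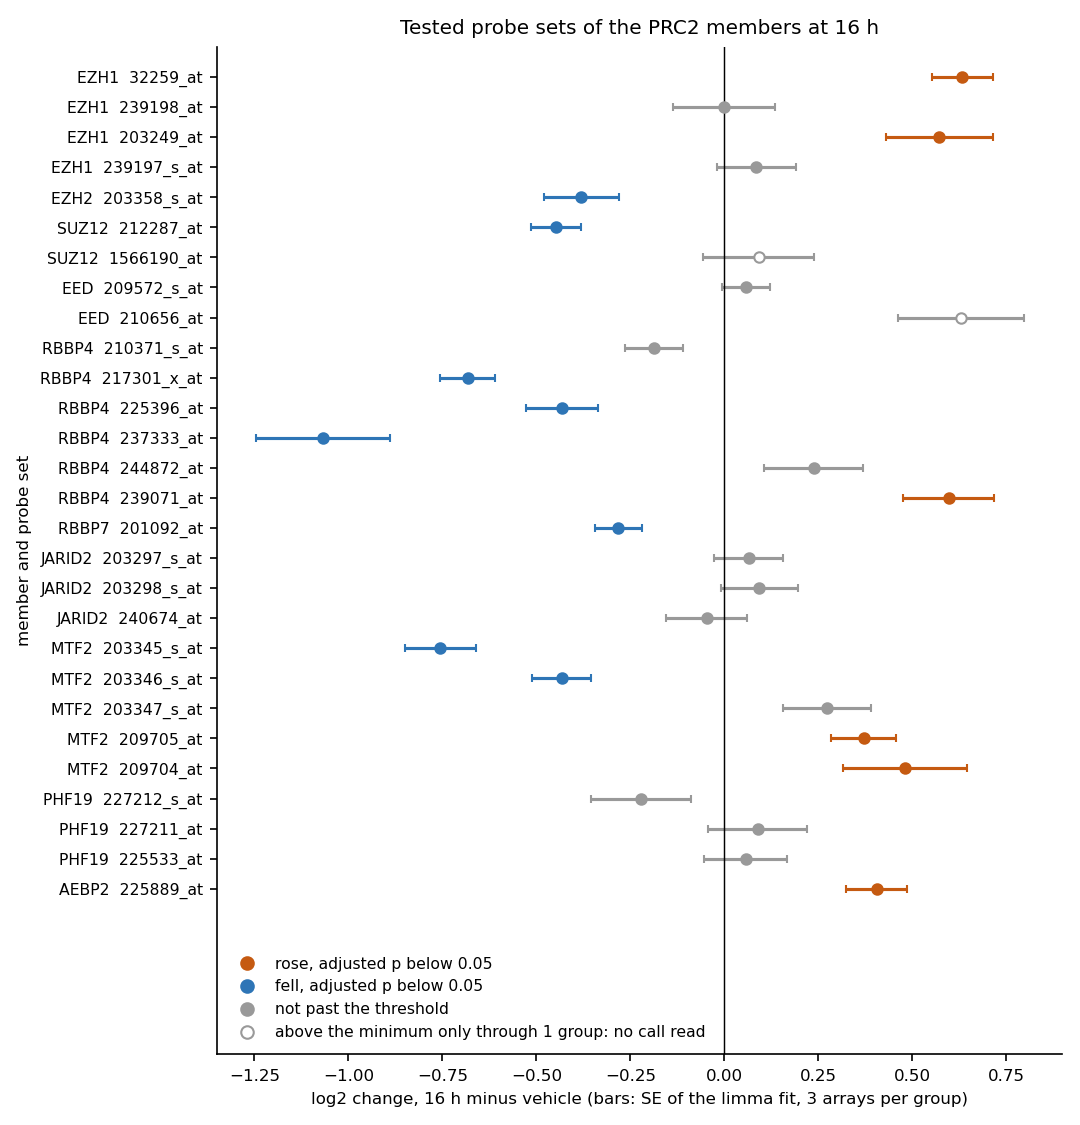
Log2 change from vehicle to 16 h (horizontal axis) of the 28 tested member probe sets, with bars of 1 SE from limma. The 6 that rose and the 8 that fell are coloured, open points mark the 2 that met the signal minimum only through a single group, and probe sets of both colours occur within MTF2 and RBBP4.

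At the earlier times no member probe set was called, with 0.293% of all probe sets called at 4 h and 0.681% at 6 h. This leaves out the probe set shared by SUZ12 and SUZ12P1, which fell 1.78-fold at 6 h (limma adjusted p over probe sets 0.016) and is described last. The lowest adjusted p of a member gene in limma was 0.662 at 4 h, where none had an unadjusted p under 0.05, and 0.467 at 6 h, where SUZ12 was the only one. The 95% confidence intervals of the member log2 changes reached from -0.36 (PHF19) to 0.27 (AEBP2) at 4 h and from -0.41 (PHF19) to 0.27 (EZH1) at 6 h. For each of the 6 members called at 16 h, the 16 h shift lay outside that member's interval at both earlier times. These members were picked by that shift, which has an error of its own. The 16 h intervals of EZH2 (-0.59 to -0.17) and RBBP7 (-0.41 to -0.16) overlapped their intervals at 4 h and 6 h. That of AEBP2 (0.24 to 0.57) overlapped its interval at 4 h. No member differed between 6 h and 4 h either, a comparison in which 0.095% of genes were called.

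Between 6 h and 16 h the same 6 members were called as against vehicle, EZH1 and AEBP2 as risen and EZH2, SUZ12, RBBP7 and MTF2 as fallen, beside 25.1% of all genes risen and 17.6% fallen. These comparisons share the 16 h arrays and are not independent. JARID2 had an adjusted p of 0.0635 there, and passed without 6 h replicate 2 (adjusted p = 0.0213).

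The labelled cell line was checked against luminal prostate markers. Of 10 such genes, 8 had a named probe set, and all 8, among them KLK3, HOXB13 and TMPRSS2, were above the background control on all 12 arrays, and 4 of them fell and 1 rose at 16 h. Of 6 fibroblast markers, COL1A1, DCN and LUM exceeded the control on all arrays, COL1A2 and PDGFRB on none, and the summed linear signal of the list was 48.8 to 60.3 on vehicle arrays and 99.0 to 132.96 at 16 h. COL1A1 and LUM rose while COL3A1 and DCN fell. No leukocyte marker was above the control on all arrays (0 of 4), and of 5 endothelial markers PECAM1 was, with CDH5, KDR and VWF below it throughout. Of 5 neuroendocrine markers with a probe set, ENO2 and SYP were above the control and fell at 16 h, and CHGA and INSM1 stayed below it. The part of these shifts in the member changes was not tested.

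Genes that work with or against PRC2 were counted at 16 h beside the 26% of all genes that rose and the 16.8% that fell. None of the list genes below was called at 4 h or 6 h. Of 4 tested partner proteins outside the member list, 3 rose and none fell, with a median log2 change of 0.35. They were PHF1 (1.34-fold), the third Polycomb-like protein, and the paralogues LCOR (1.22-fold) and LCORL (1.35-fold), whose loci encode PRC2.1 partners. Of 22 tested subunits of Polycomb repressive complex 1, which reads the mark and ubiquitinates histone H2A, 4 rose and 4 fell, with a median of 0.01 against 0.05 over all genes, and these shares are near those of all genes. PCGF1 fell 1.78-fold, BCORL1 1.76-fold and AUTS2 1.46-fold, and RYBP rose 1.56-fold.

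Of 9 tested genes of lysine 27 demethylases or PR-DUB partners, which act against Polycomb marks, 6 rose and none fell, with a median log2 change of 0.41. BAP1, the PR-DUB deubiquitinase itself, was not among those tested. The demethylase KDM6B did not pass (log2 change 0.09, limma adjusted p = 0.367). The demethylase KDM6A rose 1.53-fold, and the PR-DUB partners MBD6, MBD5 and FOXK1 rose 1.88-fold, 1.51-fold and 1.37-fold. Among 17 other histone H3 methyltransferases 3 rose and 5 fell, with a median of 0.05, beside 26% and 16.8% of all genes. DOT1L, the lysine 79 enzyme, fell 2.02-fold, NSD2 fell 1.40-fold, EHMT2 fell 1.35-fold and SETDB2 rose 1.40-fold. The 3 rises became 0 without vehicle replicate 1 and 1 without 16 h replicate 2, and the 5 falls became 3 without 16 h replicate 2 or 3.

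Of 24 genes listed as reported to be repressed by EZH2, only 13 passed the signal minimum, and 4 of these rose and 2 fell, with a median log2 change of 0.11. CDKN1C, a cyclin-dependent kinase inhibitor, rose 1.80-fold. SLIT2, a guidance ligand, rose 1.69-fold from a signal near background, and KLF2, a transcription factor, rose 1.68-fold. BMPR1B, a receptor of bone morphogenetic proteins, fell 1.37-fold. A share of 4 in 13 risen is close to the 26% of all genes.

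Cell cycle genes, among which EZH2 is usually counted, fell at 16 h. Of 22 S phase genes under E2F control, 18 fell and 1 rose, with a median log2 change of -0.51 against 0.05 over all genes. E2F1 itself fell 3.09-fold, MCM7, of the replicative helicase, 2.08-fold, UHRF1, which maintains DNA methylation, 1.97-fold, and GINS2 1.93-fold. The gene that rose, CDT1, did so barely (adjusted p = 0.0499) and lost its call in 11 of the alternatives, among them those without vehicle replicate 1, 2 or 3 or 16 h replicate 2 or 3. Of 20 mitosis genes 19 fell and none rose, with a median of -0.48. PLK1 fell 2.10-fold, TPX2 1.90-fold, FOXM1 1.81-fold and CENPA 1.69-fold, the largest changes of that list. Genes of the list lay on both sides of EZH2, whose log2 change was -0.38, or 1.30-fold. The list median was further from 0 than EZH2, while CDK1 (1.16-fold), CCNB1 (1.18-fold) and TOP2A (1.24-fold) were among those that fell less. In bulk RNA, fewer cycling cells and less of a transcript per cell cannot be told apart.

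RBBP4 and RBBP7 also belong to the NuRD, SIN3, CAF-1, HAT1 and DREAM complexes. Of 23 other subunits of these, 3 rose and 6 fell, with a median log2 change of -0.14, beside 26% and 16.8% of all genes. MTA2 of NuRD fell 1.87-fold, its partner GATAD2B fell 1.42-fold, GATAD2A rose 1.34-fold, and LIN37 of DREAM rose 1.44-fold.

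**Figure D5:**
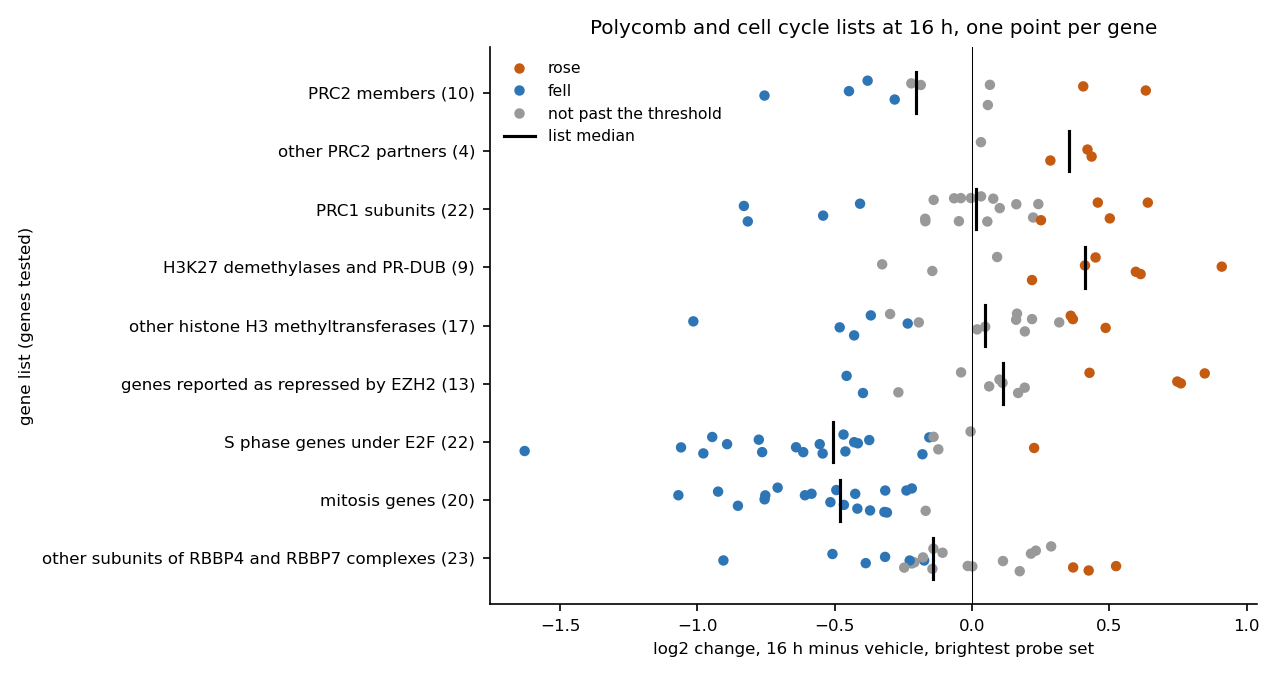
Log2 change from vehicle to 16 h (horizontal axis) of each tested gene in the PRC2 members and 8 related lists, coloured by call, with the list median as a black bar. The S phase and mitosis lists have medians of -0.51 and -0.48, and the PRC2 members lie on both sides of 0.

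The genes whose vehicle-centred signals were most like those of EZH2 over the 12 arrays, by root mean square difference among 12634 tested genes, were MGME1 (0.0816 log2 units), PEMT (0.0827), ATF7 (0.0857), SMPDL3A (0.0865) and SFXN1 (0.089). Their log2 changes at 16 h lay between -0.45 and -0.36, around the -0.38 of EZH2. For EZH1 the nearest were HSPA9 (0.0596), PCYT1A (0.0619), TYW2 (0.0685), PACSIN2 (0.0689) and CAMK2D (0.071), with 16 h changes from 0.57 to 0.70. The search used the 16 h arrays, so the likeness of these 16 h changes to those of EZH2 and EZH1 follows from the selection.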

How the data were processed

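The authors deposited log2 values for every probe set on 12 arrays, made with GCRMA per the submitters' processing notes, version not given. Such values reach from -0.49 to 13.77, and their median per array from 2.10 to 2.15, so a shift common to most genes is hidden. Precision is limited by the number of arrays, and scanner files were not used here.

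Probe sets were named from the platform annotation, updated through a RefSeq table; 41097 had 1 symbol, and 1801 with several named no gene. The minimum of 2.11 was the median over all probe sets. Background is the highest of 27 unspiked control probe sets on an array (1.87 to 2.28). All 12 arrays entered a linear model with the 4 groups as factors, in limma 3.58.1 under R 4.3.3 (lmFit, eBayes, 8 residual degrees of freedom), without covariates, two-sided, adjusted by Benjamini-Hochberg over 12635 genes or 27306 probe sets. The fit was tested on simulated data. Alternatives changed the scaling, the minimum, the choice of probe set, the model and the arrays. Paralogue differences and RNA controls used exact permutation.

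All members were described. From every other list up to 4 genes called at 16 h with the largest change were named, apart from cell type markers, and for EZH1 and EZH2 the 5 nearest genes. Members and lists were chosen with earlier results of these data known. Protein sequences were not used here.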

Additional observations from a re-analysis of the deposited data

Results flagged for a closer look

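Effects at 16 h and at 6 h, which share the vehicle arrays, differed by the direct limma test of 16 h against 6 h in 6 members. The difference in log2 change was 0.52 ± 0.08 (SE) for EZH1, 0.43 ± 0.08 for AEBP2, -0.24 ± 0.06 for RBBP7, -0.28 ± 0.06 for SUZ12, -0.28 ± 0.10 for EZH2 and -0.56 ± 0.09 for MTF2. In all of these but EZH2 the 3 arrays at 16 h lay on 1 side of the 3 arrays at 6 h, as in 52.3% of all genes. Of all genes, 25.1% were called as risen and 17.6% as fallen in that comparison.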

How the results depend on the processing

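Over 16 alternatives 6 to 8 members were called at 16 h, and 5 to 8 between 16 h and 6 h. In the main fit 42.8% of all genes were called at 16 h, and 25.1% rose and 17.6% fell against 6 h. Shares of all genes under the alternatives are not given here, so steady counts alone say little about the members. Both member ranges count EED with the mean of probe sets and without the _s_at and _x_at classes. Without those classes they also count MTF2, as risen. With the mean, SUZ12 and MTF2 lost their calls against vehicle, and EED and RBBP4 were counted instead. Over the 14 alternatives that bear on probe sets, their counts, EED 210656_at included, were 13 to 16 and 13 to 17. No member was called at 4 h, at 6 h or between them in any alternative. EZH1, EZH2, RBBP7 and AEBP2 kept their 16 h calls in all 16. EZH2 and RBBP7 have a single probe set each, so alternatives in the choice of probe set left their signals unchanged and could not challenge these calls. MTF2 turned against 6 h too, to 0.41 (adjusted p = 0.00207) when _s_at and _x_at probe sets were left out and to 0.11 (adjusted p = 0.198) with the mean of probe sets, beside 0.37 against vehicle without those classes. EED reached 0.34 with the mean and 0.63 without those classes, both through 210656_at, which met the signal minimum only through the 16 h group, so neither is read as a call. With the mean of probe sets, the PRC1 subunits gave 2 risen and 7 fallen, the genes reported as repressed by EZH2 gave 2 and 1, and the other subunits with RBBP4 or RBBP7 gave 1 and 12. A fallen PR-DUB or demethylase gene (1) appeared under quantile normalisation, the stricter minimum and the mean of probe sets. The other H3 methyltransferases gave 1 risen with the mean, 2 fallen under the stricter minimum and 3 fallen without the _s_at and _x_at classes. The cause of these differences was not tested. With the replicate number as a block, 6 members were called at 16 h. Correlations between same-numbered arrays of different groups ran from 0.00 to 0.24, with 5 of 18 over 0.1, so the numbers were not taken as pairs, although 9 of 12 arrays correlated best with their own number. Signals near 2.14, the vehicle background, carry no reliable change.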

Other observations

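Probe set 213971_s_at, annotated to both SUZ12 and its pseudogene SUZ12P1, was already lower at 6 h. It gave 7.21, 7.00 and 7.08 on vehicle arrays, 6.78, 6.92 and 6.64 at 4 h, 6.35, 6.26 and 6.19 at 6 h, and 6.49, 6.25 and 6.16 at 16 h. Every treated array was below every vehicle array. The probe set fell 1.78-fold at 6 h (limma adjusted p over probe sets 0.016) and 1.74-fold at 16 h (adjusted p = 0.000113), and its 4 h change of -0.32 did not pass (adjusted p = 0.261). Which of the loci it reports is not settled by the annotation.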
